A study of Mus musculus with 6 samples.

Results

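A set of 9 mouse genes known as interferon response genes were followed: Ifitm1, Ifitm2, Ifitm3, Ifi35, Irf1, Ddx58, Ube2l6, Isg20 and Bst2. They were chosen by their detection calls on these same arrays, from a longer list of interferon response genes and with results of the arrays already known, so their detection is a description and not a finding. Every probe whose symbol was one of these names or a synonym was used, which gave 19 of the 45281 probes on the array for the 9 genes. The samples came from Nac1 null mouse iPS cells (induced pluripotent stem cells without the nuclear protein NAC1) to which human NAC1 (hNAC1) was returned. Both lines, clone 5 and clone 7, are single clones of the null genotype, and each has a single array on days 0, 2 and 5 of the rescue, so a day is a group of 2 arrays. The sources used here do not say how human NAC1 was delivered. Null cells kept for the same days without it were not analysed here, so the rescue and the days in culture cannot be told apart.

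Interferons are secreted proteins that bind receptors on the cell surface and activate JAK kinases and STAT factors. STAT dimers bind a short element named GAS, and a complex of STAT and IRF proteins binds an element named ISRE. Their targets include antiviral proteins of membranes (the IFITM proteins and BST2), a sensor of viral RNA (RIG-I, encoded by Ddx58), transcription factors (IRF1) and the enzymes that attach the ubiquitin-like protein ISG15 (UBE2L6 among them). Pluripotent stem cells are known to respond weakly to interferon, yet to express some of these genes, the IFITM genes among them, without it. In the mouse, Ifitm3 is also known as fragilis and Ifitm1 as fragilis2, early markers of germ cell fate.

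The promoter sequences of the 9 genes bear on which of them hold the letters that STAT and IRF factors are known to bind. A GAS match was defined as TTCNNNGAA, where N is any base, and an ISRE match as GAAA, any 2 bases and GAAA again, on either strand of the 250 bases before the transcription start, and the motifs may overlap. All 9 genes matched a promoter in the RefSeq table (build GRCm38.p6), in 12 windows, since Isg20 has 3 start sites and Irf1 has 2. GAS matches lay before 1 start of Irf1, 1 of Isg20 and that of Bst2. ISRE matches lay before the listed starts of Ifitm2 and Bst2. The only windows of Ifitm1 and Ifitm2 lie inside the spans given for these genes below. The bases before the upstream ends of those spans were not read. Over all 32851 promoter windows of the table, 7.02% hold the GAS letters and 2.98% the ISRE letters. The windows of 4 genes are shown, with matches in capitals: the 2 genes that fell, Irf1 and Ifi35, and the 2 with ISRE matches, whose levels did not pass any test between days. They lie at chr11:53769764-53770013 on the plus strand for the first start of Irf1, chr11:101448162-101448411 on the plus strand for Ifi35, chr8:71537473-71537722 on the minus strand for Bst2 and chr7:140955962-140956211 on the minus strand for Ifitm2.
Irf1: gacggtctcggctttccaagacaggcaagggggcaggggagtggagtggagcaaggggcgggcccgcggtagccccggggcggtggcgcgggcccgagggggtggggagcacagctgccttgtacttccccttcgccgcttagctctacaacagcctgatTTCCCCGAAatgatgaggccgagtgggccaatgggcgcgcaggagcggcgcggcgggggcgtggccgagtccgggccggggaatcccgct
Ifi35: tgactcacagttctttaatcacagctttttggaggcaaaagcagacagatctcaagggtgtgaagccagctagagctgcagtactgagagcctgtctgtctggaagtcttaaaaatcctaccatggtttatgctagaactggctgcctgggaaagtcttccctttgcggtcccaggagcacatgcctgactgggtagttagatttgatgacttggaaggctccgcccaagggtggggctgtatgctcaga
Bst2: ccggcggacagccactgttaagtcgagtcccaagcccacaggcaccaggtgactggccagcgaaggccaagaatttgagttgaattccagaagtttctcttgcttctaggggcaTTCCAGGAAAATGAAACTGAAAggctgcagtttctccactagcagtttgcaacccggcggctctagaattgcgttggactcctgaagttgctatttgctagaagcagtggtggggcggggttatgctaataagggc
Ifitm2: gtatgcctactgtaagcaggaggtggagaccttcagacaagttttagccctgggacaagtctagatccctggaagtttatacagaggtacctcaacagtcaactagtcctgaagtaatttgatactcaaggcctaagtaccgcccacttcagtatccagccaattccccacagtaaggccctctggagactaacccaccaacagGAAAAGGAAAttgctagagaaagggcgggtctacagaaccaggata
In Irf1 the match starts 90 bases before the transcription start. In Bst2 a GAS match that starts 136 bases before it overlaps 2 ISRE matches, which start 130 and 124 bases before it and overlap each other. In Ifitm2 the ISRE match starts 46 bases before it. The windows of Ifi35, Ifitm1, Ifitm3, Ddx58, Ube2l6, the second Irf1 start and the other 2 Isg20 starts hold no match, which says only that these letters are not in those windows.

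Values below are log2 intensities after background correction and quantile normalization, and a change is a difference of such values. A probe was called detected on an array where its detection p-value, which compares it with the negative control probes of that array, was under 0.05. Between 37.0% and 40.1% of all probes were detected per array, and all 6 iPS marker genes (Pou5f1, Nanog, Sox2, Utf1, Dppa5a, Zfp42) were detected on all 6 arrays. Of the 19 probes, 11 were detected on all 6 arrays, 2 on 4, 1 on 2, 2 on 1 and 3 on none. By gene, 7 of the 9 had a probe detected on every array, Ube2l6 was detected on 4 arrays, and Isg20 on none, so for Isg20 the arrays go against the label of an expressed gene. A probe was tested if both arrays of any day detected it, which 13 of the 19 probes passed, and each gene is represented by its passing probe with the highest mean, which left 8 of the 9 genes. The limma test takes its error from the disagreement between the clones over the 6 arrays, with p-values adjusted by Benjamini-Hochberg over all 12030 genes tested. That error is the disagreement of the 2 clones in their day changes, shrunk toward a value common to all tested genes. It has 2 residual and 5.24 prior degrees of freedom, so most of its weight comes from the other genes. With no repeat culture and only these 2 lines, the p-values do not measure the spread between cultures of a line or between other lines.

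Irf1, which encodes a transcription factor that activates interferon response genes and antigen presentation (chr11:53770014-53778374), fell in both clones. Its log2 level in clone 5 was 10.26 on day 0, 9.26 on day 2 and 8.49 on day 5, and in clone 7 it was 10.13, 9.38 and 8.52. Both day 2 arrays lay below both day 0 arrays, and both day 5 arrays below both day 2 arrays. From day 0 to day 5 the change was -1.69 ± 0.17 (SE, n = 2 arrays per day), a 3.23-fold fall with a limma adjusted p of 0.00768. The fall was 3.41-fold in clone 5 and 3.07-fold in clone 7. On day 2 the change was -0.88 ± 0.17 (1.84-fold), at an adjusted p of 0.18, and from day 2 to day 5 it was -0.82 ± 0.17, at an adjusted p of 0.079, so neither step passed by itself. In bulk RNA, fewer cells with a transcript and less of it per cell cannot be told apart.

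The other Irf1 probes gave the same picture. The probe ILMN_2599782 read 8.51 and 8.35 on day 0, 7.57 and 7.54 on day 2, and 6.87 and 6.80 on day 5 in clones 5 and 7. Over the 4 probes detected on all arrays, the change from day 0 to day 5 ranged from -1.69 to -1.52, and it lay between -1.77 and -1.48 in clone 5 and between -1.75 and -1.52 in clone 7. All 4 had a limma adjusted p of 0.00723 to 0.00848 when every probe was tested by itself. Probes of 1 gene share its transcripts and are no replicates. The fifth probe was detected on 1 array only, that of clone 5 on day 0.

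**Figure D1:**
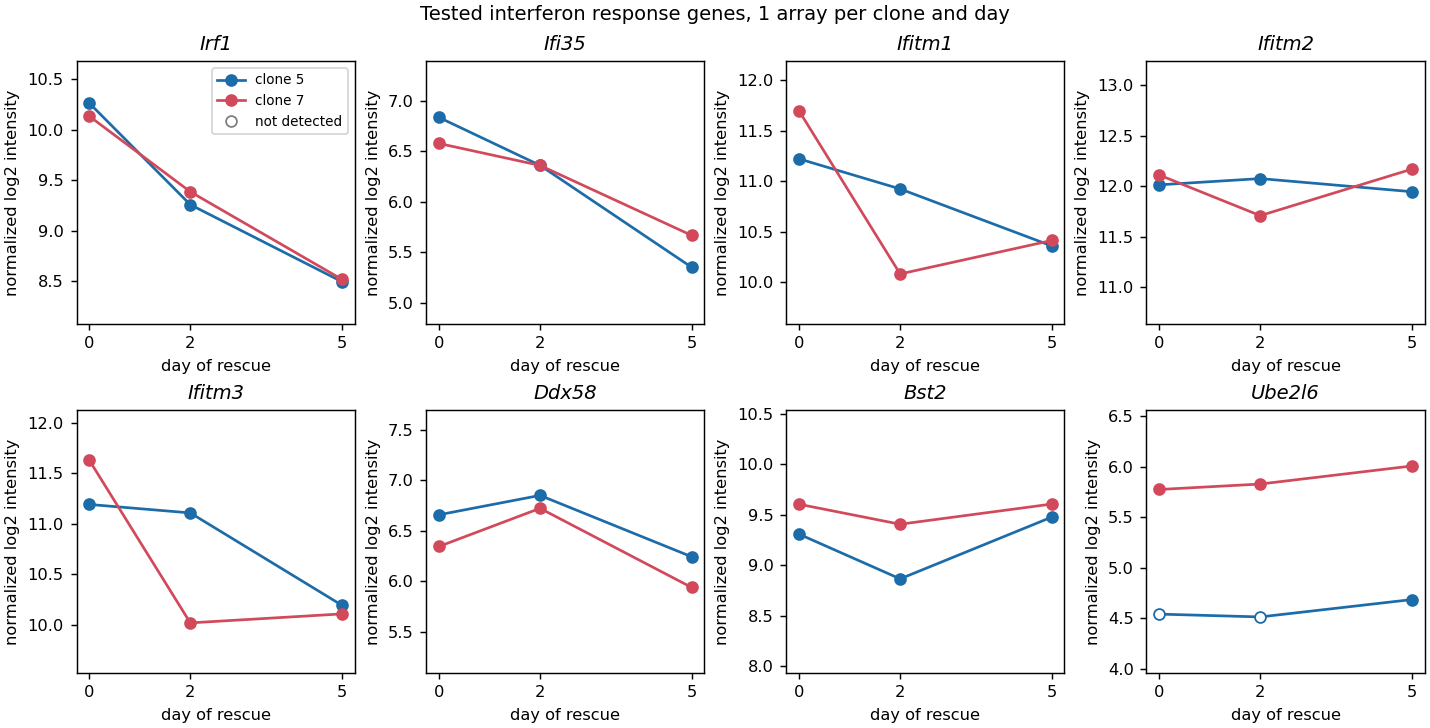
Normalized log2 intensity (vertical axis, 2.6 log2 units in each panel) of the 8 tested genes against the day of rescue, with 1 array per point, clone 5 in blue, clone 7 in red and open points where the probe was not detected. Irf1 and Ifi35 are lower at each later day in both clones, Ifitm1 and Ifitm3 are low on day 2 in clone 7, and Ube2l6 is higher in clone 7 on every day.

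Ifi35, which encodes an interferon-induced protein that pairs with NMI (chr11:101448412-101458701), was the other gene that fell. In clone 5 its log2 level was 6.83, 6.36 and 5.35 on days 0, 2 and 5, and in clone 7 it was 6.58, 6.36 and 5.67. The 2 clones were nearly equal on day 2, and the arrays of the 3 days did not overlap. The change from day 0 to day 5 was -1.20 ± 0.20 (SE, n = 2), a 2.29-fold fall, with a limma adjusted p of 0.0237. It was 2.80-fold in clone 5 and 1.88-fold in clone 7. Most of it lay after day 2, with -0.35 ± 0.20 from day 0 to day 2 (adjusted p = 0.481) and -0.85 ± 0.20 from day 2 to day 5 (adjusted p = 0.0945, limma). The call did not hold without the day 0 array of clone 5 (-0.99, adjusted p = 0.0723) or without the day 5 array of clone 5 (-0.98, adjusted p = 0.052). Without background correction the change was -0.57, and it did not pass either (adjusted p = 0.0666, limma). With the authors' series values no gene of any kind passed on day 5 by limma, and Irf1 and Ifi35 then had changes of -1.73 and -1.58 (adjusted p = 0.0921 and 0.117). Neither passed without the detection filter, at adjusted p-values of 0.0901 and 0.117, where again no gene passed by limma.

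Ifitm1 and Ifitm3, which lie close to each other and to Ifitm2 on chromosome 7 and encode membrane proteins that block virus entry, had day 5 changes below 0 in both clones on their main probes, and neither passed. Ifitm3 (chr7:141009590-141010744) read 11.19, 11.11 and 10.19 in clone 5 on days 0, 2 and 5, and 11.63, 10.02 and 10.11 in clone 7. Clone 5 was near its day 0 value on day 2, while clone 7 was already 3.06-fold lower. By day 5 the change was -1.0 in clone 5 and -1.52 in clone 7, with a mean of -1.26 ± 0.33 (SE, n = 2), which did not pass (limma adjusted p = 0.0865). Ifitm1 (chr7:140967429-140969827) read 11.22, 10.93 and 10.36 in clone 5 and 11.70, 10.08 and 10.42 in clone 7. Its change was -0.30 in clone 5 and -1.62 in clone 7 on day 2, and -0.86 and -1.28 on day 5, with a mean of -1.07 ± 0.30 on day 5 (adjusted p = 0.0992). For both genes the day 5 arrays lay below the day 0 arrays. Whether the clones differ in timing could not be tested, since each clone has 1 array per day. With only the 4 arrays of days 0 and 5, both genes passed on day 5 by limma, with adjusted p-values of 0.0491 for Ifitm1 and 0.0341 for Ifitm3. Leaving out either day 2 array gives the same fit and is no separate check, since the lone day 2 array adds nothing to the error. Without the day 0 array of clone 5 the day 5 changes were -1.51 for Ifitm1 and -1.78 for Ifitm3. Without the day 0 array of clone 7 they were -0.64 and -0.75. With the authors' series values neither passed by limma (adjusted p = 0.261 for Ifitm1 and 0.248 for Ifitm3). The same held without the detection filter (0.34 and 0.332). The mean of the Ifitm1 probes that passed the filter changed by -0.495 on day 5 (limma adjusted p = 0.549).

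A second Ifitm1 probe, ILMN_1214071, also detected on all 6 arrays, did not follow the first. It read 7.49, 7.58 and 8.40 in clone 5 and 8.77, 6.16 and 8.03 in clone 7 on days 0, 2 and 5. On day 2 it was low in clone 7 alone, as with the first probe, with a change of -2.61. On day 5 it was 0.91 above day 0 in clone 5 and 0.74 below it in clone 7, with a mean change of 0.08 where the first probe had -1.07. After centring each probe on its own mean, the 2 Ifitm1 probes differed by up to 1.09 on an array, whereas the first Ifitm1 probe and the Ifitm3 probe differed by at most 0.26. The probe sequences were not used here, so whether the Ifitm1 and Ifitm3 probes read each other's transcripts was not tested. The other 3 Ifitm1 probes were detected on 0, 0 and 1 arrays.

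Ifitm2 (chr7:140954837-140959686), the neighbour with an ISRE match, showed no such fall. It read 12.02, 12.08 and 11.95 in clone 5 and 12.11, 11.71 and 12.17 in clone 7 on days 0, 2 and 5. The day 2 array of clone 7 was its lowest, at -0.40 from day 0. The day 5 change was -0.01 ± 0.20 (SE, n = 2; limma adjusted p = 0.993).

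**Figure D2:**
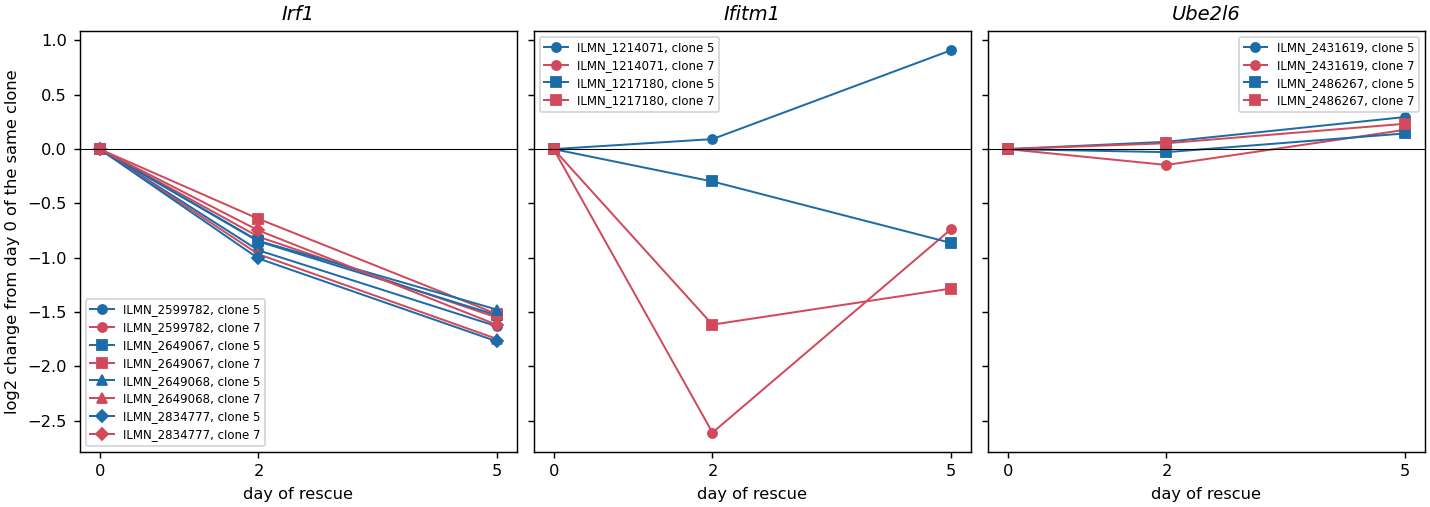
Log2 change from day 0 of the same clone (vertical axis) against the day of rescue for each probe that passed the detection filter, clone 5 in blue and clone 7 in red, with 1 array per point and a marker shape per probe. The 4 Irf1 probes are at -1.77 to -1.48 on day 5 in both clones, the 2 Ifitm1 probes part on day 5, and both Ube2l6 probes stay within 0.30 of day 0.

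Ddx58, which encodes the RNA sensor RIG-I (chr4:40203777-40239825), was highest on day 2 in both clones. It read 6.66, 6.85 and 6.24 in clone 5 and 6.34, 6.72 and 5.94 in clone 7 on days 0, 2 and 5. Both day 5 arrays lay below all others. The changes were 0.28 ± 0.17 on day 2, -0.41 ± 0.17 on day 5 against day 0 and -0.70 ± 0.17 (SE, n = 2) on day 5 against day 2, with limma adjusted p-values of 0.499, 0.219 and 0.104. A second probe, deposited under an older name of the gene, was detected on 2 arrays and was not tested. Bst2 (chr8:71534255-71537472), which encodes tetherin, a membrane protein that holds budding virus at the cell surface, read 9.31, 8.87 and 9.48 in clone 5 and 9.60, 9.41 and 9.61 in clone 7. It was lowest on day 2 in both clones, and its day 5 level was 0.09 ± 0.18 from day 0 (adjusted p = 0.839). From day 2 to day 5 the change was 0.41 ± 0.18 (adjusted p = 0.299), and the arrays of these days did not overlap.

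Ube2l6, the conjugating enzyme gene of the ISG15 pathway (chr2:84798828-84810003), read higher in clone 7 than in clone 5 on each day, a pattern known from earlier results of these arrays, and passed in no comparison. Its probe ILMN_2486267 read 4.54, 4.51 and 4.68 in clone 5 and 5.77, 5.83 and 6.01 in clone 7 on days 0, 2 and 5. All clone 7 arrays lay above all clone 5 arrays, as for 4.61% of all genes (4.95% lay wholly below). Clone 5 was not detected on days 0 and 2, and clone 7 was then at least 2.10-fold and 2.30-fold higher, against the lowest detected signal of the clone 5 array. On day 5, when both clones were detected, clone 7 was 2.50-fold higher. The probe passed the detection filter through day 5 alone. The second probe, ILMN_2431619, gave at least 2.12-fold, at least 2.03-fold and 2.43-fold for the same days. The fitted difference over the days, 1.29 at a limma adjusted p of 0.0671, includes the 2 clone 5 values that were not detected and so gives no exact size. It was 2.54 with the authors' series values and 0.44 without background correction. Isg20 (chr7:78913396-78920396), which encodes an exonuclease that degrades viral RNA, was not detected on any array, at raw intensities of 90.6 to 97.0 beside array medians of 93.4 to 95.9.

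From day 0 to day 5, 2 of the 8 tested genes passed and both fell, against 1.8% of all 12030 genes that passed as lower (2.46% passed as higher, 4.26% in either direction). At an unadjusted p under 0.05 it was 5 of the 8, against 21.4% of all genes. Their median change was -0.74 with 6 of 8 below 0, where the median of all genes was 0.00 and 49.9% lay below 0. On 5 of the 8 genes both day 5 arrays lay below both day 0 arrays, as for 23.6% of all genes, and on 0 above (25.1%). On day 2, 0 of 8 genes passed the limma test, as for 0% of all genes, while 3 of 8 had an unadjusted p below 0.05 (13.5% of all genes). The unpaired fit without clone also called 0 on day 2. The median change of the 8 genes on day 2 was -0.33, with Ifitm1, Ifitm3, Ifi35 and Irf1 below day 0 on both arrays (4 of 8, against 19.5% of all genes) and Ddx58 above (1 of 8, against 23.4%). From day 2 to day 5, 0 of 8 passed the limma test (0.79% of all genes, 0.59% as higher and 0.2% as lower), 3 had an unadjusted p under 0.05 (17.9% of all genes), and the median was -0.27. Here 3 of 8 genes were below on both arrays (25.0% of all genes) and 1 above (21.7%). Irf1 and Ifi35 were the 2 genes lower at each later day in both clones, a pattern of 6.48% of all genes. Between clones 0 of 8 passed by limma (0% of all genes), 1, Ube2l6, had an unadjusted p under 0.05 (11.3% of all genes), and the median was -0.004. The day 2 and day 5 changes share the day 0 arrays, and Irf1, Ifi35, Ifitm1 and Ifitm3 were among the genes with earlier results in view, so these counts describe the chosen genes.

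**Figure D3:**
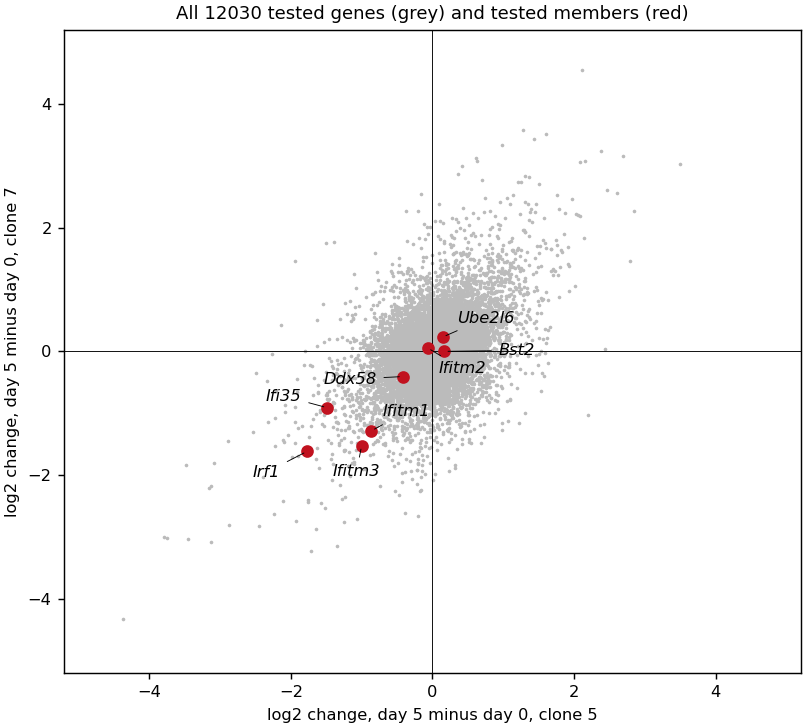
Log2 change from day 0 to day 5 in clone 5 (horizontal axis) and clone 7 (vertical axis) for all 12030 tested genes in grey and the 8 tested interferon response genes in red, with 1 array per clone and day. Irf1, Ifi35, Ifitm3 and Ifitm1 lie in the lower left, Ddx58 nearer the centre at -0.42 and -0.41, and Ifitm2, Bst2 and Ube2l6 close to 0.

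A wider list of 109 other genes of the interferon pathway was set beside them, and 0 of its 54 tested genes passed in any comparison by limma. Those with an unadjusted p below 0.05 numbered 15 for day 2 against day 0 (27.8%, beside 13.5% of all genes) and 13 for day 5 against day 0 (24.1%, beside 21.4%). They numbered 9 for day 5 against day 2 (16.7%, beside 17.9%) and 8 for the clones (14.8%, beside 11.3%). Of the 54 tested genes, 37 lay below 0 on day 2, with a median of -0.15, beside 48.2% of all genes. On day 5 it was 29 of 54, with a median of -0.08, beside 49.9% of all genes. Of the 106 of these genes on the array, 44 had a probe detected on all 6 arrays, 15 on some and 47 on none. Among the ligands, 8 of 9 interferon genes were detected on no array, Ifnb1 and Ifng included, and Ifna1, on 5 arrays, was close to the detection limit at 4.56 to 4.89. The receptor genes Ifnar2, Ifngr1, Ifngr2 and Ifnlr1 were detected on all arrays and Ifnar1 and Il10rb on none. All 5 JAK and STAT genes were detected on all arrays. Of the IRF genes other than Irf1, Irf3 and Irf9 had day 5 changes of -0.20 and -0.08, and Irf4, Irf5, Irf7 and Irf8 were not detected.

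Among sensors and adaptors 10 of 16 genes were tested, with a median of -0.27 on day 5. Myd88, an adaptor of Toll-like receptors, had a change of -0.73 (adjusted p = 0.0866), Trim25, a ubiquitin ligase of RIG-I, one of -0.56 and the kinase gene Tbk1 one of -0.43, while Rnf135, another ligase of RIG-I, was at 0.58. The viral RNA sensor genes Ifih1, Tlr3 and Tlr7 were not detected. In the ISG15 pathway Uba7, Herc6 and Usp18 were detected on no array, and Isg15 itself was not matched to a probe. Of the antiviral effectors, 17 of the 32 genes on the array were detected on none, among them Ifit1, Ifit2, Ifit3, Mx1, Mx2, Rsad2 and Cxcl10. The 13 tested effectors had a median of 0.04 on day 5, with Parp14 at -0.86, Samhd1 at 0.38, Ifi30, a lysosomal reductase gene, at 0.24 and the RNA-editing enzyme gene Adar at 0.14.

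The 9 tested genes of antigen presentation all lay below 0 on day 2, with a median of -0.62, beside 48.2% of all genes. On day 5 it was 6 of 9, with a median of -0.39, beside 49.9% of all genes, and 0 passed on either day. On day 5 the proteasome activator genes Psme2 and Psme1 were at -1.13 and -0.76 (adjusted p = 0.0514 and 0.0983). B2m is the light chain gene of MHC class I. It read 9.06, 8.98 and 9.67 in clone 5 and 8.93, 7.77 and 9.63 in clone 7. Its day 2 array of clone 7 was its lowest, as for Ifitm1, Ifitm2 and Ifitm3. Nmi, which encodes the partner of IFI35, was not detected, and the nuclear body genes Pml and Daxx were at -0.65 and -0.48 on day 5. The 5 tested negative regulators had a median of 0.11 on day 5, with Socs3 at -0.18, Ptpn6 at 0.49, Ptpn11 at 0.15 and Pias1 at 0.02. Of the other IFITM genes, Ifitm6 was at -0.73 and Ifitm5 at 0.19, detected on 2 and 4 arrays, and Ifitm7 and Ifitm10 were not detected.

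**Figure D4:**
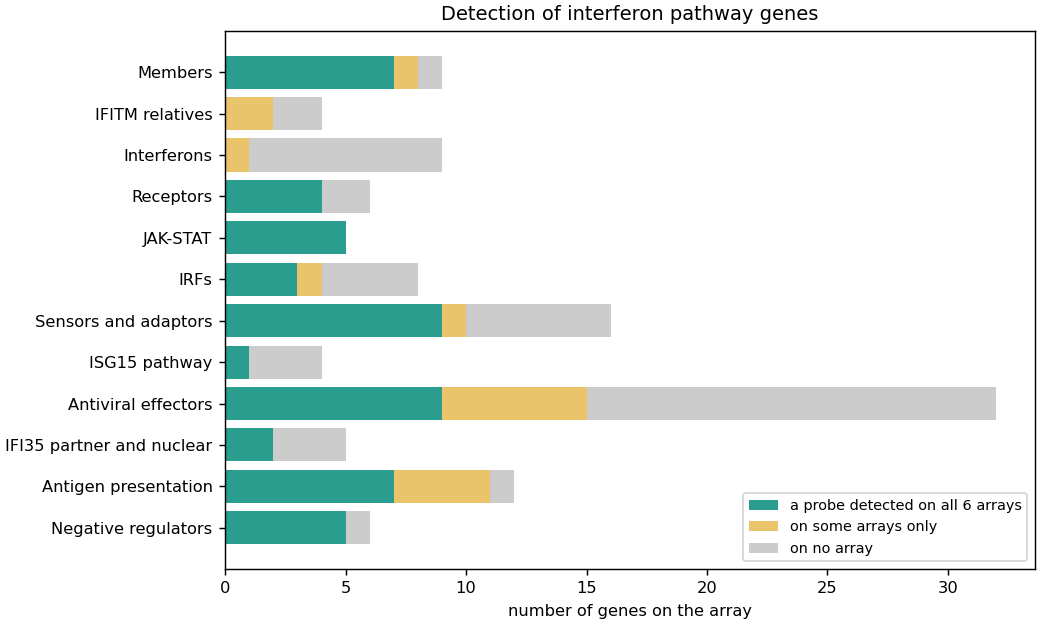
Number of genes (horizontal axis) of each list of interferon pathway genes whose best probe was detected on all 6 arrays, on some or on none. The 9 genes of the report are in the top bar, and 8 of 9 interferon genes and 17 of 32 antiviral effectors were detected on no array.

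Markers of other cell types that express interferon response genes were read on the same arrays. Of 8 macrophage and blood markers 0 to 1 were detected per array, and Ptprc, Lyz2, Csf1r and 4 others on none, with a summed linear level of 157 to 168. Of 7 feeder and fibroblast markers 1 to 2 were detected, and Col1a1, Col1a2, Col3a1, Postn and Lum on none. Their summed level was 179 to 555 on day 0, 150 to 239 on day 2 and 283 to 346 on day 5, and Thy1 was the single one detected on all arrays. Of 5 endothelial markers 1 to 2 were detected, and their summed level was 131 to 176 on day 0, 119 to 136 on day 2 and 165 to 167 on day 5, and of the 2 tested ones Tek rose by 1.29 on day 5 (adjusted p = 0.0217, limma) while Esam had a change of -1.06 (adjusted p = 0.0533). Of 7 germ cell markers 4 to 5 were detected, and Prdm1 and Nanos3 on none. Their summed level was 1107 to 1155 on day 0, 903 to 1100 on day 2 and 1279 to 1703 on day 5. Of the tested ones, Dppa3 rose on day 5 by 2.54 (adjusted p = 0.00194, limma). Dazl, Tfap2c and Dnd1 had day 5 changes of 0.525, 0.306 and -0.094 and did not pass. Each summed level counts undetected genes too, so where few genes were detected it is largely background signal. The part of these levels in the changes of the interferon response genes was not tested.

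The genes whose levels over the 6 arrays were most like those of 3 members were read from 4043 tested genes with an SD of at least 0.3. For Ifitm3 they were Chst3, Mcam and Nqo1 at a Pearson r of 0.99, 0.98 and 0.98, for Ifi35 Cog7, Krt42 and Phf19 at 0.99 each, and for Ube2l6 Fcgr3, Fam25c and Smtnl1 at 0.97 each. With 6 arrays from 2 lines and this many genes, such values describe the arrays only.

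The authors' deposited table, which lists 698 probes with an unadjusted p-value, holds 7 probes of 4 of these genes, all lower on day 5. Of its 698 probes, 345 are lower on day 5 and 353 higher. It comes from the same arrays, so it is no separate evidence. In the authors' deposited table the 4 Irf1 probes have day 5 log2 changes of -2.16, -2.11, -1.73 and -1.73, with p-values of 0.002 to 0.023, and day 2 changes of -1.13 to -0.91. The same authors' deposited table gives -1.58 for Ifi35, -1.26 for Ifitm3 and -1.07 for Ifitm1 on day 5, with p-values of 0.032, 0.029 and 0.046. The second Ifitm1 probe and the probes of Ifitm2, Ddx58, Bst2 and Ube2l6 are not among its rows.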

How the data were processed

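Gene expression was measured on 6 Illumina mouse bead arrays, 1 per clone and day. The deposited scanner table holds raw bead intensity, deposited as non-normalised per its name and the file headers, and a deposited detection p-value per probe. The deposited series values and the authors' fold change table are on a log2 scale, background subtracted and normalised by the authors, as their values show. The sources used here name no software for these files.

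Symbols were matched to the RefSeq gene table of GRCm38.p6, by which 27740 probes had a current symbol, 8035 a synonym and 9506 neither, and 1 probe of the 9 genes was found through a synonym. Signals were corrected with normexp from the detection p-values (offset 16), converted to log2 and quantile normalised (limma 3.58.1, R 4.3.3). The detection filter of the report, at p under 0.05, kept 17471 probes of 12030 genes. Day and clone were fitted with lmFit and eBayes (2 residual and 5.24 prior degrees of freedom), with clone as a block since each day samples the same 2 cell lines. Across genes, the difference between the clones correlated at 0.36 between days 0 and 2, -0.07 between days 0 and 5 and 0.34 between days 2 and 5. Genes passed at an adjusted p of 0.05, and the number of arrays limits the precision. The fit was also run on simulated data with independent noise and no clone effect, which checks the code and not the error of these arrays.

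All 9 genes are named, with up to 4 genes per pathway list by mean change over the day comparisons (some are not reported here) and the 3 genes most like Ifitm3, Ifi35 and Ube2l6. Genes of the lists that are named only as detected or not were chosen after their values were seen. The genes and lists were chosen with earlier results of these data known. Alternatives changed the block (none, or random with statmod 1.5.0), the background correction (none, or offset 50), the scaling (median, or the series values), the filter (none, or every array under 0.01), the probes (all, or their mean), the shrinkage (trended and robust), the threshold (0.1) and the arrays (each left out, or 2 days only).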

Additional observations from a re-analysis of the deposited data

Results flagged for a closer look

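The clones moved in opposite directions in 6 of the 24 changes between days of the 8 tested genes, and none of these differences was tested, since each clone has 1 array per day. From day 2 to day 5 Ifitm3 changed by -0.92 in clone 5 and 0.09 in clone 7 (difference 1.004), and Ifitm1 by -0.57 and 0.33 (difference 0.90). Ifitm2 changed by 0.06 in clone 5 and -0.40 in clone 7 on day 2 (difference -0.47), by -0.07 and 0.06 on day 5 against day 0 (0.13), and by -0.13 and 0.46 from day 2 to day 5 (0.59). Ube2l6 changed by -0.03 and 0.05 on day 2 (0.082), in clone 5 between arrays that did not detect it.

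Among the 6 probes that were not tested, 3 were detected on 1 or 2 arrays. The lowest detection p-values were 0.0321 for the Ifitm1 probe ILMN_1245129, on day 5 of clone 5, 0.0256 for the Irf1 probe ILMN_2624100, on day 0 of clone 5, and 0.0353 for the Ddx58 probe ILMN_1251358, on day 0 of clone 5.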

How the results depend on the processing

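Over 556 changes of single genes under other settings, 499 kept their direction and side of the threshold, 33 changed sign, 17 passed where they had not and 7 no longer passed. Some of these settings give the same fit and are not separate checks. The cause of each change was not tested. On day 5 against day 0, 2 members passed, and 2 also did without the replicate block. The count was 1 without background correction (Irf1, with 127 genes called in all), 0 with the series values (0 of 11826 genes, 2094 at an unadjusted p under 0.05), 0 without the detection filter (0 of 28908, 3742), 3 with trended and robust shrinkage (Ifitm3 added, adjusted p = 0.0476), 4 at a threshold of 0.1, 4 with only the arrays of the days compared, and 1 to 4 with an array left out. Without the detection filter Irf1 and Ifi35 had adjusted p-values of 0.0901 and 0.117. All genes called on day 5 numbered 512, against 208 without the replicate block and, with an array left out, 138 (day 0, clone 7) to 672 (day 5, clone 5). From day 2 to day 5 they numbered 95, against 13 without the replicate block and 0 to 516 with an array left out. From day 2 to day 5, where 0 members passed, 1 passed with trended and robust shrinkage (Irf1) and 2 at 0.1. Between clones, where 0 passed, Ube2l6 passed with trended and robust shrinkage, at 0.1 and without either day 5 array, which makes 0 to 1 with an array left out. On day 2 no setting called a member. The replicate block changed no other call of a member.

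Sign changes concerned values that passed in no setting. From day 2 to day 5 the mean of the Ifitm1 probes was at 0.61. Others were -0.049 (series values) and -0.013 (mean of probes) for Ube2l6 on day 2, 0.004 (series values) for Ifitm2 on day 5, and, between clones, -0.01 without background correction, -0.005 with an offset of 50 and -0.045 with median scaling for Ifi35, and -0.069 with median scaling, -0.003 with the series values and -0.10 with the mean of probes for Irf1. With an array left out, ranges that crossed 0 were -0.44 to 0.094, -0.19 to 0.17 and -0.10 to 0.43 for Ifitm2 (day 2, day 5, day 5 against day 2), -0.03 to 0.056 for Ube2l6 on day 2, -0.059 to 0.23 for Bst2 on day 5, -0.67 to 0.44 for Ifitm1 and -1.05 to 0.22 for Ifitm3 from day 2 to day 5, and, between clones, -0.39 to 0.27 for Ifitm1, -0.13 to 0.16 for Ifitm2, -0.59 to 0.18 for Ifitm3, -0.13 to 0.16 for Ifi35 and -0.053 to 0.076 for Irf1. Leaving out an array leaves a lone array of its day, which adds nothing to the error. Leaving out either array of a day not compared, or of any day for the clones, therefore gives the same fit. Signals near the background, as for Ube2l6, limit the size of a change that can be read.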
